A study of Mus musculus with 19 samples.

Results

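The respiratory chain subunit genes are the nuclear genes for the proteins that carry electrons to oxygen and make ATP in the inner membrane of mitochondria. They were chosen by symbol alone: the Nduf genes of complex I, the Sdh genes of complex II, the Uqcr genes of complex III, the Cox4 to Cox8 genes of complex IV and the Atp5 genes of complex V, leaving out predicted genes. Of 86 such symbols, 81 had a named probe and 79 passed the filter on dim probes, among 19315 genes tested. Complex I gave 34 of these genes, complex II 4, complex III 7, complex IV 17 and complex V 17. Ndufa4, named for complex I, was counted with complex IV, to which it is now assigned. The 5 symbols without a named probe were Ndufa11, Ndufa4l2, Ndufb1, Ndufb4c and Uqcr10, and the 2 below the filter were Cox7b2 and Cox8c. Of the 79 genes, 78 were well above background on all 19 arrays, and Cox4i2 was so on 13.

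Lung RNA came from male MutaMouse animals (transgenic strain 40.6) aged 25 weeks, which were gavaged daily for 28 days; a piece of lung was collected 3 days after dosing ended. Benzo(a)pyrene (BaP) is a combustion product of the polycyclic aromatic hydrocarbon class. The groups were 5 vehicle controls and, by daily BaP dose in mg/kg, 5 mice at 25, 4 at 50 and 5 at 75. All groups, controls included, carry the transgene. The submitters planned 5 mice for each group, and 4 of the middle dose are described here. A single 2-colour array was used per mouse, with lung RNA against a reference RNA pooled from 11 mouse cell lines, so every level is a log2 ratio of lung over that reference and does not rank genes by abundance. The lung signal was well above background at 19777 to 27279 spots of an array. The labels give 1 array per mouse, so p-values measure the spread between these mice and their arrays. Where slide or scan day was not fitted as a block, that spread also holds differences between the 6 slides and 5 scan days.

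Complexes I and II take electrons from NADH and succinate and pass them through ubiquinone to complex III, cytochrome c and complex IV, where oxygen is reduced. Complexes I, III and IV pump protons, and complex V, the ATP synthase, uses the return flow. Complex IV has subunits with paired isoforms, of which one is found in most tissues and the other mainly in heart and skeletal muscle (Cox6a2, Cox7a1, Cox8b), in lung (Cox4i2) or in testis (Cox6b2).

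The promoters of the 3 genes that passed the test at the highest dose, and of 2 muscle isoforms whose levels were high in the same mice, are shown for orientation. Each is the 250 bases before the gene's start, from RefSeq on GRCm38.p6, 5′ to 3′ on the gene's strand. Capitals mark matches on either strand to 5 motifs: the NRF1 core, searched by its consensus, and the GABP site CCGGAAG, both known from promoters of respiratory chain genes, the E-box CANNTG, and the MEF2 site and p53 half-site, also by consensus.
Cox6b2 promoter, chr7:4753095-4753344, minus strand: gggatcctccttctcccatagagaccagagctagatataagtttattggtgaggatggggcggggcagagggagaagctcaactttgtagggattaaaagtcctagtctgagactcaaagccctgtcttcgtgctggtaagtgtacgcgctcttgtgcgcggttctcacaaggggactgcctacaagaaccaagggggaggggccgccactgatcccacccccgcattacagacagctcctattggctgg
Uqcrh promoter, chr4:116075071-116075320, minus strand: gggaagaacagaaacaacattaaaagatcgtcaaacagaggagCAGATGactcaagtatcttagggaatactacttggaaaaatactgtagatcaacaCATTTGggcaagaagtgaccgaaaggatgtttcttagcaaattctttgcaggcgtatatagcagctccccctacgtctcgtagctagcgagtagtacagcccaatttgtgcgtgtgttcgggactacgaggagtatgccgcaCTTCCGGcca
Atp5b promoter, chr10:128083057-128083306, plus strand: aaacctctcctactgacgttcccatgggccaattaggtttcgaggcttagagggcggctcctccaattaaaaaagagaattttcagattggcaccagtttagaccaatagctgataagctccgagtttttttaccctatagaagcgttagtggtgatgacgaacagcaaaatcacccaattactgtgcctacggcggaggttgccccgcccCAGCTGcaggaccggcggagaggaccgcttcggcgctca
Cox8b promoter, chr7:140900447-140900696, minus strand: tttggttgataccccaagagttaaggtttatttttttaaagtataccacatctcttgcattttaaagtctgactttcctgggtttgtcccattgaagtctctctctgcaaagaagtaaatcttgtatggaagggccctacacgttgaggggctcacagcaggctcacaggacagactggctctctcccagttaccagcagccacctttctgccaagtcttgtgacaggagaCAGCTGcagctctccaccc
Cox7a1 promoter, chr7:30183921-30184170, plus strand: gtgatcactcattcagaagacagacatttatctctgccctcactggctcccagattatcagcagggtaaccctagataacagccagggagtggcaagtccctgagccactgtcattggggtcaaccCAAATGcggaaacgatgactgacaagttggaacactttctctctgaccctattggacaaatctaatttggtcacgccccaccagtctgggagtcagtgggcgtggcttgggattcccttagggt
Cox6b2 had no match to any of the 5 motifs in this window. Uqcrh held a GABP site 10 to 4 bases before the start, read on the opposite strand as CTTCCGG, and 2 E-boxes. Atp5b, Cox8b and Cox7a1 held 1 E-box each. Of the 79 genes, 65 were in the promoter table. These were counted with 1 promoter each, while the background counts every promoter entry, so a gene may count there more than once. The NRF1 core was found in 11 of those 65 (16.9%) and in 3.74% of all 32851 promoters, and the GABP site in 11 (16.9%) and in 6.91%. E-boxes were in 61.5% against 66.2%, p53 half-sites in 4.62% against 7.13% and MEF2 sites in 0 of 65 against 0.508%. These matches are letters in the window and were not tested as binding sites.

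Most respiratory chain genes were not called at any dose. With limma and Benjamini-Hochberg adjustment over all genes at a threshold of 0.05, 0 of the 79 genes passed at 25 mg/kg/day, where 0.0518% of all genes did (0.0414% higher and 0.0104% lower), and 0 at 50 mg/kg/day, where 1.09% did. At an unadjusted p under 0.05 in limma, the counts were 9 at 25 and 6 at 50 mg/kg/day (11.4% and 7.59% of the members, against 7.83% and 12.8% of all genes). At 75 mg/kg/day 3 passed, of which 1 was higher (2.65% of all genes) and 2 were lower (1.53% of all genes), against 4.18% of all genes in either direction. The share among the members was thus near the background, also at an unadjusted p under 0.05, which 14 members had (17.7%, against 17.3% of all genes). In a fit of dose as a number, the same 3 genes passed, against 4.66% of all genes (2.82% higher and 1.84% lower). Between 75 and 25 mg/kg/day 0 passed, against 0.57% of all genes, and 6 had an unadjusted p under 0.05 (7.59%, against 6.85% of all genes). The genes called were Cox6b2, higher, and Uqcrh and Atp5b, lower.

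**Figure D1:**
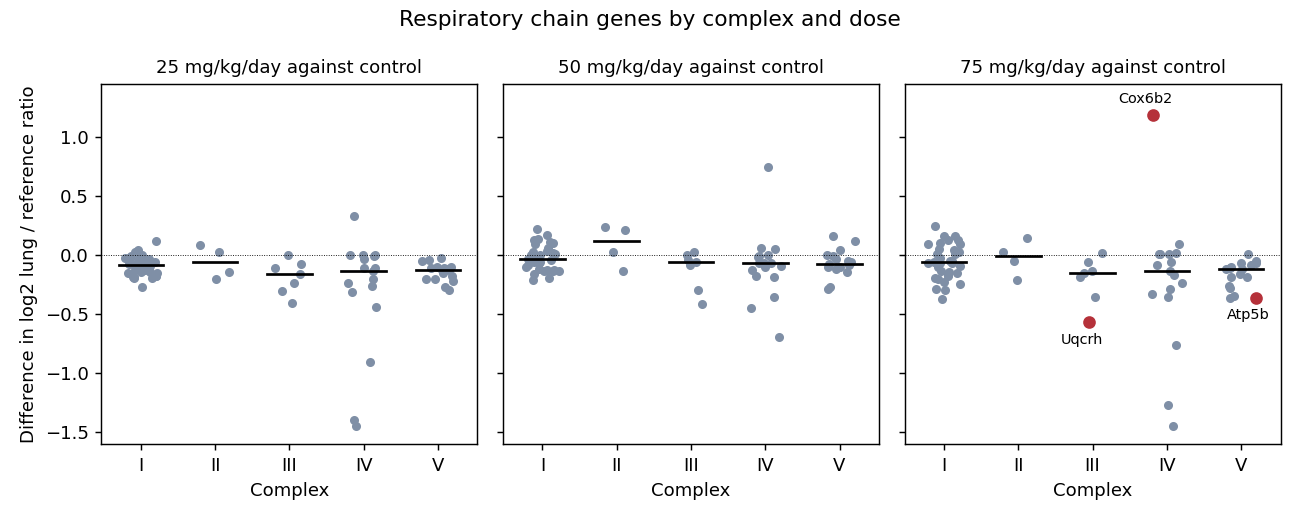
Differences in log2 lung over reference ratio from the controls (y axis) for the 79 genes, by complex (x axis) and dose (panels). Each point is a gene, horizontal bars are medians, and red points passed an adjusted p of 0.05. Most points lie within a narrow band, and Cox6b2, Uqcrh and Atp5b at 75 mg/kg/day are the only red points.

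Complex I oxidises NADH, and 0 of its 34 genes were called at any dose in the main fit, which has no block for slide. With slide as a block, Ndufb6 was called higher at 75 mg/kg/day and at 75 against 25 mg/kg/day. There 9.19% and 1.52% of all genes passed. Ndufs1 and Ndufs7 were called lower in the dose trend of that fit, against 9.03% of all genes. The median difference of complex I in log2 ratio in the main fit was -0.087 at 25, -0.033 at 50 and -0.061 at 75 mg/kg/day. The 7 core subunits, which carry the flavin, the iron-sulphur clusters and the quinone site, had medians of -0.124, -0.127 and -0.151, and the 27 accessory subunits had -0.079, -0.017 and -0.06. Ndufs1, the iron-sulphur subunit at the NADH end, had the largest difference of complex I at 75 mg/kg/day. Its log2 ratios were 0.25, 0.03, -0.68, -0.03 and 0.20 in the controls and -0.39, -0.61, -0.67, -0.45 and 0.02 at 75 mg/kg/day. The groups overlapped, since control 3 was as low as the lowest treated mouse. The difference was -0.37 ± 0.20 (SE; n = 5 and 5; limma adjusted p = 0.35). Ndufb10 and Ndufs5, accessory subunits, lay below all controls in every mouse at 25 mg/kg/day, with adjusted p-values of 0.42 and 0.49. Ndufb10 also did so at 75 mg/kg/day, with 0.60 to 0.85 against 0.86 to 1.01 in the controls (adjusted p = 0.15).

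Complex II, succinate dehydrogenase, also serves the tricarboxylic acid cycle, and 0 of its 4 genes were called. Sdhd, a membrane anchor, had the largest difference at 75 mg/kg/day. It was 0.11, -0.42, -0.80, -0.35 and -0.32 in the controls and -0.59, -0.74, -0.63, -0.63 and -0.24 at 75 mg/kg/day. The groups overlapped, and the difference of -0.21 ± 0.13 in log2 ratio did not pass (adjusted p = 0.46). The other members were Sdha and Sdhb of the catalytic head and the anchor Sdhc, and the median difference of the complex was -0.063, 0.118 and -0.008 at the rising doses.

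In complex III, which passes electrons from ubiquinol to cytochrome c, 1 of 7 genes was called. Uqcrh, the hinge protein next to cytochrome c1, had log2 ratios of 0.83, 0.85, 0.35, 0.83 and 0.97 in the controls. It was 0.30, 0.30, 0.78, 0.61 and 0.32 at the lowest dose, 0.42, 0.70, 0.31 and 0.44 at 50 mg/kg/day, then 0.25, 0.20, -0.02, 0.17 and 0.39 at 75 mg/kg/day. Only mouse 20 (0.39) at the highest dose lay above the lowest control, control 3 (0.35). Uqcrh fell by 0.57 ± 0.12 in log2 ratio at 75 mg/kg/day (1.48-fold lower, 95% interval 1.24 to 1.77; adjusted p = 0.01), and the dose trend was -0.17 per 25 mg/kg/day (adjusted p = 0.011). At 25 and 50 mg/kg/day the differences of -0.30 and -0.30 did not pass (adjusted p = 0.55 and 0.34). Its other probe gave -0.36 at 75 mg/kg/day. With arrays centred on their medians and no loess, a choice that shifts the all-gene median to 0.351, the sign turned (0.39; adjusted p = 0.43). In the lung channel alone the difference was -0.24 (adjusted p = 0.36), and without controls 4 and 5 it was -0.48 (adjusted p = 0.064). A background offset of 10 in place of 50 gave -0.39 (adjusted p = 0.12). Feature Extraction's processed signals gave -0.29 (adjusted p = 0.16) and the authors' deposited ratios -0.26 (adjusted p = 0.3). Uqcrfs1, the Rieske iron-sulphur protein, differed by -0.36 ± 0.17 (adjusted p = 0.27).

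In complex IV, cytochrome c oxidase, 1 of 17 genes was called in the main fit. Cox6b2, the isoform known from testis of a subunit that faces the intermembrane space, had log2 ratios of 1.15, 0.92, 0.98, 1.24 and 0.97 in the controls and 1.64, 1.15, 1.48, 1.53 and 1.10 at 25 mg/kg/day. It was 2.32, 1.87, 1.15 and 1.85 at 50 mg/kg/day, then 2.55, 1.97, 2.82, 1.65 and 2.19 at 75 mg/kg/day. All 5 mice at the highest dose lay above all 5 controls, while the groups at 25 and 50 mg/kg/day overlapped the controls. Cox6b2 rose by 1.18 ± 0.20 in log2 ratio at 75 mg/kg/day (2.27-fold, 95% interval 1.69 to 3.05; adjusted p = 0.0018), and the dose trend was 0.40 per 25 mg/kg/day (adjusted p = 4e-04). The differences at 25 (0.33; adjusted p = 0.74) and 50 mg/kg/day (0.74; adjusted p = 0.11) did not pass, nor did 75 against 25 mg/kg/day (0.86; adjusted p = 0.073). With slide as a block, those at 50 mg/kg/day (0.73; adjusted p = 0.024) and at 75 against 25 mg/kg/day (0.86; adjusted p = 0.004) passed. On the 4 slides shared by controls and the highest dose, the treated mouse was higher than its control by 0.73, 1.00, 1.57 and 1.04. In the lung channel alone the difference at 75 mg/kg/day was 0.97 (limma adjusted p = 0.018). At 25 and 50 mg/kg/day the lung channel gave 0.014 and 0.424, which did not pass (adjusted p = 0.99 and 0.56). In the reference channel Cox6b2 differed by -0.26, -0.166 and -0.065 at the rising doses. The part of the reference channel in the ratios at 25 and 50 mg/kg/day was not tested. Its widespread counterpart Cox6b1 lay between -0.57 and -0.18 in the controls and between -0.37 and -0.22 at 75 mg/kg/day.

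**Figure D2:**
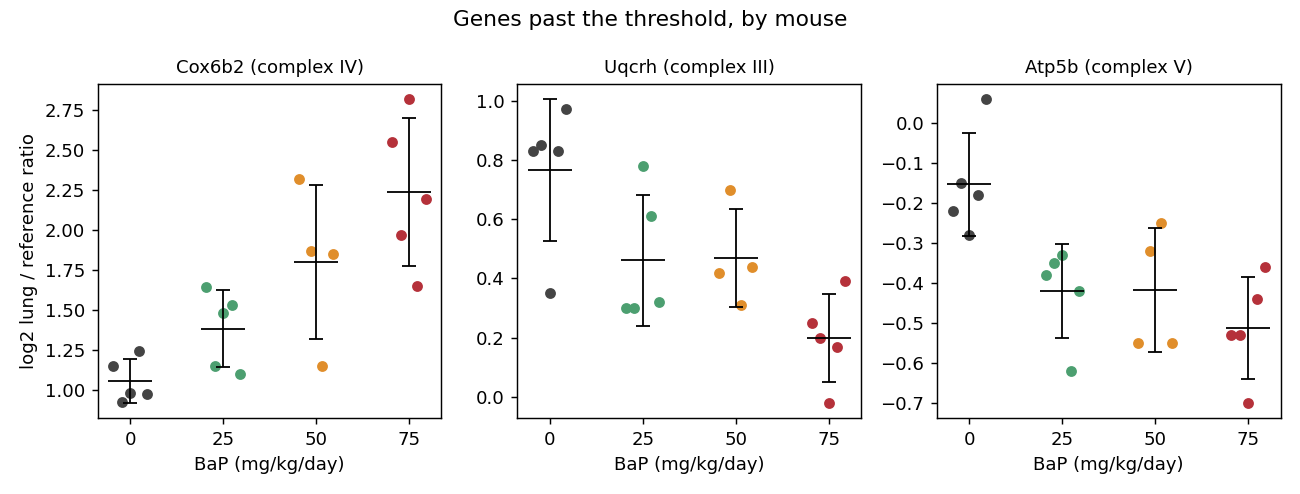
Log2 lung over reference ratio (y axis) of Cox6b2, Uqcrh and Atp5b in each mouse by BaP dose (x axis, mg/kg/day). Points are mice, and bars give the mean and SD of each group. All 5 mice at 75 mg/kg/day lie above the controls for Cox6b2 and, in these loess ratios and not with median centring, below them for Atp5b, while for Uqcrh mouse 20 overlaps the lowest control.

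In complex V, 1 of 17 genes was called in the main fit. Atp5b, the catalytic beta subunit of the F1 head, had log2 ratios of -0.22, -0.15, -0.28, -0.18 and 0.06 in the controls and -0.38, -0.35, -0.33, -0.62 and -0.42 at 25 mg/kg/day. It was -0.55, -0.32, -0.25 and -0.55 at 50 mg/kg/day, then -0.53, -0.53, -0.70, -0.44 and -0.36 at 75 mg/kg/day. The mice at 25 and 75 mg/kg/day all lay below the controls, and mouse 14 at 50 mg/kg/day did not. Atp5b fell by 0.36 ± 0.09 in log2 ratio at 75 mg/kg/day (1.28-fold lower, 95% interval 1.13 to 1.46; adjusted p = 0.022). The dose trend was -0.11 per 25 mg/kg/day (adjusted p = 0.033), and the differences of -0.27 at 25 and -0.27 at 50 mg/kg/day did not pass (adjusted p = 0.41 and 0.2). With median centring the sign turned here too (0.56; adjusted p = 0.24). This call rests on the brightest of 3 probes, since the other 2 gave -0.083 and -0.007 at 75 mg/kg/day and the mean of all probes gave -0.15 (adjusted p = 0.64). It was also lost without control 2, control 5, mouse 16 or mouse 18, each left out alone (adjusted p = 0.05, 0.055, 0.058 and 0.079). The trend kept its sign but lost its call in 16 of 38 other settings, among them leaving out control 1, 2, 4 or 5, mouse 16 or mouse 18 singly (adjusted p = 0.059 to 0.093). In 1 more, median centring, its sign turned and it did not pass (0.174, adjusted p = 0.24). In the lung channel alone the difference at 75 mg/kg/day was -0.17 (adjusted p = 0.28). The 5 F1 genes had a median difference of -0.28 at 75 mg/kg/day and the 12 genes of the stalk and membrane part -0.12. Both medians use the brightest probe of each gene, and medians with other probes were not taken. Atp5a1, the alpha subunit, differed by -0.37 ± 0.11 (adjusted p = 0.078), and its other probe gave -0.225. Atp5c1, the gamma subunit, differed by -0.28 ± 0.12 (adjusted p = 0.22).

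Groups that do not overlap were counted as a second description. At 25 mg/kg/day 5 of the 79 genes lay wholly below the controls (Atp5b, Atp5g3, Cox7a1, Ndufb10 and Ndufs5), against 0.466% of all genes, and 0 wholly above, against 0.994%. At 75 mg/kg/day 2 lay wholly below (Atp5b and Ndufb10), against 1.67% of all genes, and 1 wholly above (Cox6b2), against 3.04%. At 50 mg/kg/day 0 did so in either direction, against 1.96% of all genes lower and 2.54% higher.

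The 3 muscle isoforms of complex IV varied most between mice. Cox8b had log2 ratios of 2.15, 1.47, 2.44, 4.70 and 5.38 in the controls and 1.88, 1.77, 1.92, 1.65 and 1.71 at 25 mg/kg/day. It was 1.40, 5.47, 3.16 and 2.49 at 50 mg/kg/day, then 2.17, 1.19, 1.39, 1.15 and 3.00 at 75 mg/kg/day. Controls 4 and 5 and mouse 13 were far above the rest, and all groups overlapped. The difference at 75 mg/kg/day was -1.45 ± 0.70 (adjusted p = 0.3). Cox7a1 was 1.44, 0.85, 1.05, 3.18 and 2.90 in the controls, 0.34, 0.75, 0.65, 0.52 and 0.18 at the lowest dose, 0.02, 3.81, 1.75 and 1.22 at 50 mg/kg/day, then 0.91, -0.21, -0.05, 0.05 and 2.39 at 75 mg/kg/day. Its difference at 75 mg/kg/day was -1.27 ± 0.60 (adjusted p = 0.29). Cox6a2 ranged from 0.10 to 2.10 in the controls and from -0.65 to 1.42 at 75 mg/kg/day, with a difference of -0.76 ± 0.45 (adjusted p = 0.41). It too was highest in mouse 13 (2.58) and controls 5 and 4 (2.10 and 1.86).

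Controls 4 and 5 and mouse 13, and mouse 20 with them, stood apart in fat markers, while each list of muscle markers set apart only some of these mice. A list's level in a mouse is the median log2 ratio of its genes minus their control mean. The level of 10 cardiac muscle markers was 1.24 in control 4, 1.74 in mouse 13 and 0.80 in mouse 20, against -2.37 to 0.42 in the other mice. The level of 8 fat markers was 1.52 in control 4, 0.81 in control 5, 0.61 in mouse 13 and 0.92 in mouse 20, against -1.61 to 0.25 in the others. The level of 14 skeletal muscle markers was 3.91 in control 5 and between -1.99 and 0.13 elsewhere. By group, the cardiac level ran from -0.82 to 1.24 in the controls, from -1.94 to -0.53 at 25, from -2.37 to 1.74 at 50 and from -2.34 to 0.80 at 75 mg/kg/day. The fat level ran from -1 to 1.52, from -1.35 to -0.49, from -1.57 to 0.61 and from -1.61 to 0.92 in the same order. None of these markers passed at 75 mg/kg/day (0 of 14, 0 of 10 and 0 of 8). There 7 skeletal muscle, 2 cardiac muscle and 2 fat markers had an unadjusted p under 0.05 in limma, against 17.3% of all genes. Of 14 lung markers, 0 passed there too, with 1 under that unadjusted p, and their level stayed between -0.41 and 0.31 in all mice. At 25 mg/kg/day 10, 2 and 5 muscle and fat markers, in the same order, had such a p, against 7.83% of all genes. At 50 mg/kg/day 2, 0 and 0 did, against 12.8%. The differences of all 14, 10 and 8 markers were below zero at 25 and 75 mg/kg/day, and of 14, 4 and 8 at 50 mg/kg/day. In such bulk tissue, fewer cells of a type and less RNA per cell cannot be told apart. The part of muscle or fat tissue in the isoform levels was not tested.

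The widespread partners Cox8a, Cox7a2 and Cox6a1 had narrower ranges over the 19 mice, from -0.68 to -0.16, from -0.49 to -0.05 and from 0.07 to 0.68. Cox8a had mean log2 ratios of -0.34 ± 0.20 (SD, n = 5) in the controls and -0.42 ± 0.08 (n = 5) at 75 mg/kg/day (adjusted p = 0.65). Cox7a2 had -0.32 ± 0.09 and -0.30 ± 0.14 (adjusted p = 0.95), and Cox6a1 had 0.44 ± 0.24 and 0.45 ± 0.08 (adjusted p = 0.97). Cox4i1, the widespread form of the largest nuclear subunit, had -0.39 ± 0.31 and -0.68 ± 0.26 (adjusted p = 0.41). It was highest in mouse 13 (-0.02) and controls 4 and 5 (-0.11 and -0.15). The muscle isoforms, and also the median over all 79 genes, were highest in these same mice. Cox4i2, the lung isoform of Cox4i1, was well above background in 3 controls and in 3, 2 and 5 mice at the rising doses. Cox4i2 had 0.11 ± 0.12 and 0.20 ± 0.10 (adjusted p = 0.63).

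**Figure D3:**
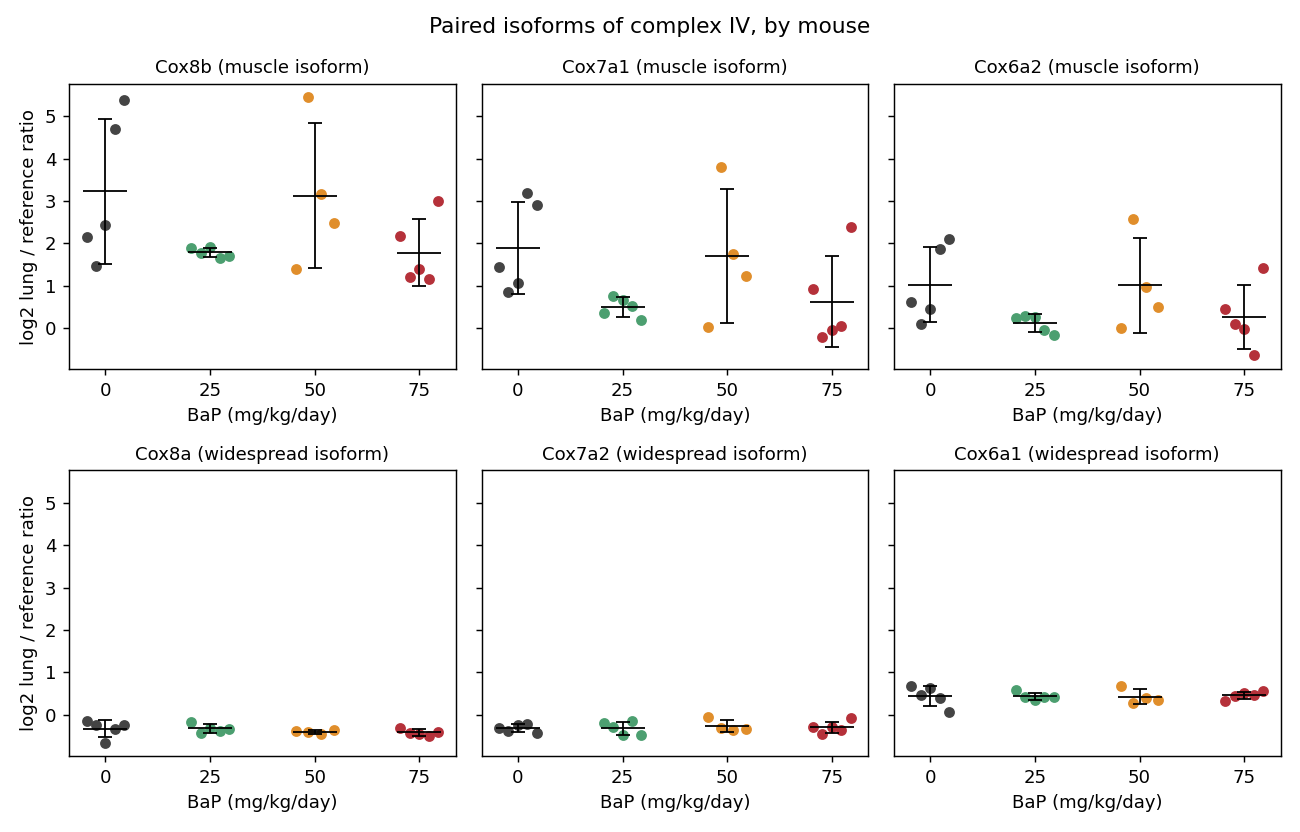
Log2 lung over reference ratio (y axis) of 3 muscle isoforms of complex IV (top) and their widespread partners (bottom) in each mouse by BaP dose (x axis, mg/kg/day). Points are mice and bars give the mean and SD. Cox8b spans 1.15 to 5.47, with controls 4 and 5 and mouse 13 highest, and Cox8a spans -0.68 to -0.16.

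As a set, the 79 genes had small median differences, and their size depended on which mice were used. The median difference in log2 ratio was -0.116 at 25, -0.056 at 50 and -0.099 at 75 mg/kg/day, against 0.008, -0.001 and -0.008 over all genes tested. Below zero were 71, 54 and 56 of the 79 genes, against 47.5%, 50.3% and 52.1% of all genes. By complex, the medians at 75 mg/kg/day were -0.15 for complex III, -0.135 for complex IV and -0.121 for complex V. Without the tissue isoforms, the 74 other genes had -0.114, -0.056 and -0.097.

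By mouse, the median over the 79 genes was -0.08, -0.07, -0.10, 0.15 and 0.17 in the controls, -0.11, -0.13, -0.12, -0.12 and -0.13 at the lowest dose, -0.15, 0.15, -0.07 and -0.10 at 50 mg/kg/day, then -0.08, -0.08, -0.12, -0.18 and -0.03 at 75 mg/kg/day. Controls 4 and 5 and mouse 13 were above zero and all other mice below it. Those are the mice with the highest Cox8b and Cox7a1. Control 5 and mouse 13 were also the only arrays of their slide and scan day, and the part of either in these levels was not tested. Muscle or fat markers were over 0.5 in controls 4 and 5 and mice 13 and 20, a limit set after the values were seen. Without these 4 mice, the median difference of the 79 genes was -0.006 at 25, -0.016 at 50 and 0.008 at 75 mg/kg/day. In that fit, at 75 mg/kg/day, Cox6b2 rose by 1.23 (adjusted p = 0.015) and Uqcrh fell by 0.53 (adjusted p = 0.04), while Atp5b, at -0.34, did not pass (adjusted p = 0.064). Without controls 4 and 5 alone, 1 gene was called at 75 mg/kg/day, and the share of all genes was not counted for that fit. Without control 5 and mouse 13 the medians were -0.075, -0.073 and -0.059. Both of these sets of mice were picked from the values of the genes reported. Controls 4 and 5 had the highest medians of the controls, so leaving them out raises differences from the controls by construction. Without the 4 arrays that Feature Extraction marked for evaluation (controls 1 and 3, mice 12 and 20) the medians were larger, at -0.185, -0.073 and -0.172. In that fit 7 genes were called at 75 mg/kg/day, and the share of all genes was not counted there either. Within slides the median over the members differed from the control by -0.04, -0.02, -0.23 and -0.01 at 25, by 0.01, -0.05 and -0.01 at 50 and by -0.10, 0.04, -0.24 and 0.00 at 75 mg/kg/day. The largest of these differences were on the slide that held control 4.

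**Figure D4:**
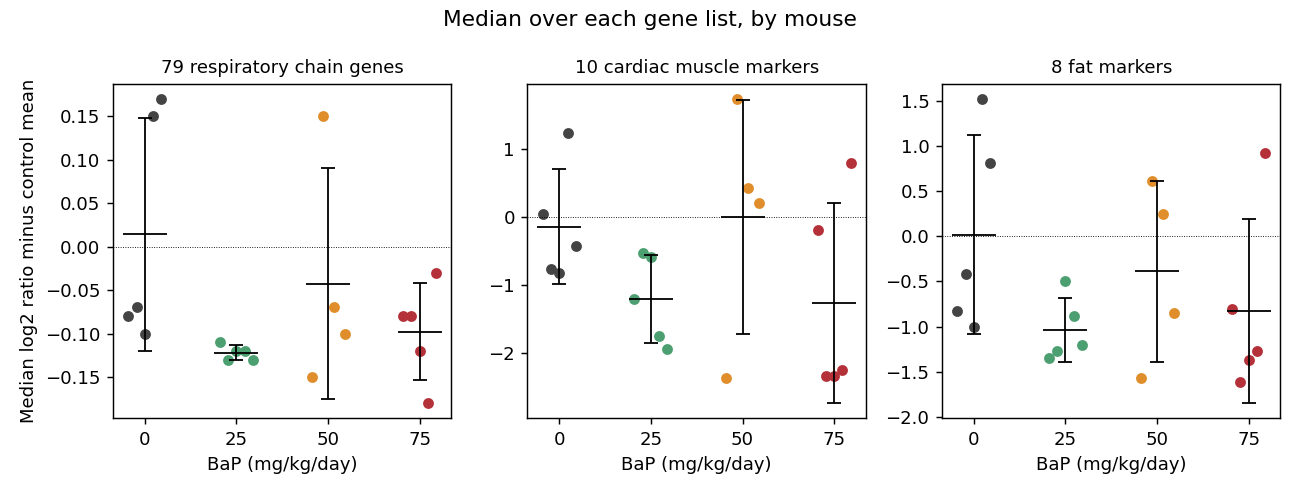
Median log2 ratio minus the control mean (y axis) over the 79 respiratory chain genes, 10 cardiac muscle markers and 8 fat markers in each mouse by BaP dose (x axis, mg/kg/day), with a scale of its own in each panel. Points are mice and bars give the mean and SD. Controls 4 and 5 and mouse 13 are the only mice above zero in the left panel.

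The direction of the set also depended on how arrays were centred. With each array centred on its median in place of loess, the median of all genes moved to 0.148, 0.137 and 0.351 and that of the members to 0.2, 0.259 and 0.66. The medians of the 5 complexes at 75 mg/kg/day were then 0.705, 0.578, 0.606, 0.62 and 0.656, and 1 member was called, Cox6b2. In the authors' deposited table the members' medians were -0.105, -0.002 and -0.015.

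With slide as a block, 8 of the 79 genes were called at 75 mg/kg/day, against 9.19% of all genes, so the members' share was again near the background. Of these 8 genes 6 were lower, and the share of all genes called lower was not counted in that fit. Called lower were Atp5a1, Atp5b, Atp5g2, Cox4i1, Cox7a2l and Uqcrh, and called higher were Cox6b2 and Ndufb6. In the fit without a block, the probe used for Atp5g2 gave -0.35 at 75 mg/kg/day and its other probe -0.128. Cox7a2l is a factor that joins complexes III and IV.

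Other genes of the mitochondrion were counted for comparison at 75 mg/kg/day. There 4.18% of all genes passed and 17.3% had an unadjusted p under 0.05 in limma. Of 42 assembly factors of the chain 0 passed, with 3 at an unadjusted p under 0.05 in limma, of 19 tricarboxylic acid cycle genes 0 (4), of 76 mitochondrial ribosomal proteins 0 (9) and of 13 regulators of mitochondrial biogenesis 0 (4). Of 16 genes for electron carriers 1 rose, Coq10b, which binds coenzyme Q (0.49 ± 0.12; adjusted p = 0.018). Of 23 import and carrier genes 1 rose, Timm22 of the inner membrane translocase (0.26 ± 0.06; adjusted p = 0.018). On a list of 13 genes headed mitochondrial DNA and transcription 1 fell, Lars2 (-0.98 ± 0.22, adjusted p = 0.015). Lars2 is the mitochondrial leucyl-tRNA synthetase, a gene of translation, and no other gene of that list passed. With median centring these 3 genes did not pass (1.00, 0.91 and 0.12; adjusted p = 0.056, 0.07 and 0.79), and the sign of Lars2 turned.

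Outside the mitochondrion, 47 of 78 cytoplasmic ribosomal protein genes fell and 1 rose, with a median difference of -0.47 that turned to 0.454 with median centring, where 0 passed as lower and 1 as higher. Rpl22l1, a paralog of Rpl22, fell by 1.05 ± 0.10 (adjusted p = 4.2e-06; -0.213 and 0.64 with median centring), and Rps27l, also known as a p53 target, rose by 1.09 ± 0.09 (adjusted p = 6.9e-07). Of 19 p53 targets 15 rose, with a median of 1.29 (16 and 1.81 with median centring), led by the cell cycle inhibitor Cdkn1a (3.28 ± 0.23; adjusted p = 3.4e-08) and the stress cytokine Gdf15 (3.16 ± 0.20; adjusted p = 2e-08).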

How the data were processed

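Lung RNA of 19 mice was measured on 2-colour arrays, with lung in Cy5 and reference in Cy3 on each, per the labels, so dyes were not swapped. Spot intensities (median spot and local background) were deposited by the authors as written by Feature Extraction (per the file headers, version 10.7.3.1). The authors' deposited table holds log2 ratios of lung over reference, with a centring that the sources used here do not state, and served as an alternative. Background was corrected with normexp (offset 50) in limma 3.58.1 under R 4.3.3, and arrays were normalized by loess with control and outlier spots at weight 0. Outlier spots (0.29%) were left out. The offset compresses differences of dim spots. Probes were named by RefSeq accession (23374 of 41174), kept if the lung signal was well above background on 4 or more arrays, and a gene was given its brightest probe. The 19 arrays were fitted with a mean per group, and with dose as a number, in lmFit and eBayes; p-values were adjusted over 19315 genes at 0.05. The scripts were tested on simulated data. There were 6 slides and 5 scan days. The number of arrays limits the precision.

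The members and gene lists were chosen with earlier results of these data known. Named were up to 4 called genes per complex, the gene with the largest difference at 75 mg/kg/day where a complex had none, the paired complex IV isoforms, and up to 2 called genes of each other list. Outside that rule, Ndufb10, Ndufs5, Ndufs7, Uqcrfs1, Atp5a1, Atp5c1, Atp5g2, Atp5g3, Cox6b1, Cox7a2l and Ndufb6 were named after their values were seen. In the fit without the mice with high muscle or fat markers, 1 called gene is not reported here. Alternatives changed the background, the normalization, the filter, the probe, the blocks and the mice used.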

Additional observations from a re-analysis of the deposited data

Results flagged for a closer look

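Of 76 groups of 4 or 5 mice checked for a sample far from the others, 3 had one, and chance alone marks about 1 in 20 groups. Uqcrh in control 3 was the lowest of the controls at 0.35, with the nearest at 0.83 (gap over range 0.762). Cox4i2 in mouse 15 was the highest at 50 mg/kg/day at 0.22, with the nearest at 0.15 (0.901). Cox7a2 in mouse 12 was the highest at 50 mg/kg/day at -0.05, with the nearest at -0.32 (0.833).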

How the results depend on the processing

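There were 39 alternative settings: 19 that leave out 1 mouse, 16 planned changes of the processing or the fit, and 4 added after seeing the data. The added ones leave out the 4 arrays marked for evaluation, the 4 mice with muscle or fat markers over 0.5 (a limit also set after seeing the values), control 5 with mouse 13, and controls 4 and 5; the last 2 sets of mice were picked from the values of the genes reported. No paired analysis was possible because the groups share no replicate numbers; mice were set side by side only through the slides they shared, as a block and within slides. Cox6b2 at 75 mg/kg/day stayed called in 38 of 39 settings, the exception being the reference channel alone. Atp5b there lost its call in 13 and Uqcrh in 5, beside the reversals below. Scaling the mean intensities between arrays (Aquantile) leaves the ratios identical by construction.

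Calls at 75 mg/kg/day (3) became 1 with median centring, with an offset of 10, in the authors' deposited ratios, in the lung channel alone and without controls 4 and 5, 0 in the reference channel alone, 8 with slide as a fixed block, 6 with slide as a random block or scan day as a block, and 7 without the 4 arrays marked for evaluation. Calls over all genes moved too, from 807 to 535, 512, 727, 555 and 6 in the first 4 of these and the reference channel. With slide as a fixed block 9.19% of all genes passed. Calls in the dose trend (3) became 1 with median centring, an offset of 10, the lung channel alone and without controls 4 and 5, 0 in the reference channel, 8 with slide as a fixed block, 5 with slide as a random block or scan day, and 6 without the 4 marked arrays. Over all genes the trend calls went from 900 to 1020 with median centring, 650 with an offset of 10, 696 in the lung channel and 6 in the reference channel. With slide as a fixed block 9.03% of all genes passed. In the authors' deposited ratios 2 were called in the trend, both higher, so that neither lower call was kept. With Feature Extraction's signals 2 were called at 75 mg/kg/day and 2 in the trend, where 1449 and 1606 of all genes passed. Neither Uqcrh nor Atp5b was among them. Calls at 50 mg/kg/day (0) became 1 with slide or scan day as a fixed block and 2 with slide as a random block. Calls at 75 against 25 mg/kg/day (0) became 3 with slide or scan day as a fixed block, 2 with slide as a random block and 2 with array weights. With slide as a fixed block 2.14% of all genes passed at 50 and 1.52% at 75 against 25 mg/kg/day. Shares of all genes were not counted for scan day, the random block, array weights or the fits that leave out mice. Leaving out 1 mouse gave 0 calls at 25, 0 to 1 at 50, 2 to 6 at 75 (6 without mouse 20), 0 to 1 at 75 against 25 mg/kg/day and 2 to 3 in the trend. The members' median then ranged from -0.147 to -0.068 at 25, from -0.102 to 0.001 at 50 and from -0.132 to -0.056 at 75 mg/kg/day. It moved to 0.2, 0.259 and 0.66 with median centring and to -0.006, 0.068 and 0.004 without controls 4 and 5. Without the mice with high markers it was -0.006 at 25 and 0.008 at 75 mg/kg/day.

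Signs turned as follows, and the cause was not tested. With median centring Atp5b was 0.083, 0.093 and 0.564 at the rising doses, 0.481 at 75 against 25 mg/kg/day and 0.174 in the trend, and Uqcrh was 0.068, 0.076, 0.39, 0.322 and 0.12. At 75 mg/kg/day Cox4i1 was then 0.611, Cox8a 0.827, Ndufs1 0.38 and Sdhd 0.511. In the reference channel alone, which holds no lung RNA, Atp5b was 0.075, 0.043 and 0.007 and Cox6b2 -0.26, -0.166 and -0.065 at the rising doses, and -0.009 for Cox6b2 in the trend. There Uqcrh was 0.004 at 50, 0.015 at 75, 0.026 at 75 against 25 mg/kg/day and 0.006 in the trend, and at 75 mg/kg/day Cox6a1 was -0.049, Cox7a2 -0.085 and Ndufs1 0.012. Atp5b at 75 against 25 mg/kg/day was 0.045 with Feature Extraction's signals, 0.094 in the authors' deposited ratios, 0.015 in the lung channel and 0.019 with an offset of 10. Cox8a at 75 mg/kg/day was 0.107, 0.188, 0.003 and 0.075 in the same 4 settings. Cox7a2 there was -0.023 with Feature Extraction's signals, -0.008 with array weights, -0.006 as the mean of probes, -0.008 without control 5 and mouse 13, -0.015 without the 4 marked arrays and -0.036 without the mice with high markers. Cox6a1 was -0.082 without control 5 and mouse 13, -0.133 without controls 4 and 5, -0.157 without the mice with high markers, -0.028 with scan day, -0.029 with slide as a fixed block and -0.005 as a random block. Leaving out 1 mouse turned Cox6a1 without mouse 18 (-0.002), mouse 20 (-0.012), control 4 (-0.004) or control 5 (-0.082), within a range of -0.082 to 0.068, and Cox7a2 without mouse 20 (-0.036) or control 5 (-0.008), within -0.036 to 0.057. Net lung signals were low, with medians of 15 to 46.5 units by array, which limits dim genes.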

Other observations

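Cox7c, a small widespread subunit of complex IV picked after its values were seen, had mean log2 ratios of -1.88 ± 0.83 (SD, n = 5) in the controls, -2.32 ± 0.71 (n = 5) at 25, -2.57 ± 0.59 (n = 4) at 50 and -2.21 ± 0.80 (n = 5) at 75 mg/kg/day. Single mice ranged from -3.12 to -0.71, and all groups overlapped.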
